A study of Mus musculus with 4 samples.

Results

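The genes described are 10 components of the mammalian circadian clock, namely Per1, Per2, Per3, Cry1, Cry2, Dbp, Tef, Hlf, Nr1d1 and Bhlhe41. They were taken as every feature of the deposited array table whose platform annotation gave one of these symbols, which gave 19 features. All 10 genes were present among the 19087 that the platform names unambiguously. RNA of mouse embryonic fibroblasts, connective-tissue cells grown from embryos, was compared between an Mll1-/- line and a wild-type (Mll1+/+) line, both cultured in DMEM with 10% serum. The Mll1 protein, product of the gene Kmt2a, methylates lysine 4 of histone H3 and is known as a partner of the clock activator CLOCK at circadian promoters. The 4 two-colour Agilent arrays each held both RNAs, with the mutant in Cy5 on arrays 1 and 3 and in Cy3 on arrays 2 and 4. The labels give no time of harvest and no synchronising treatment, and name 1 line per genotype, so a difference in clock phase, in line and in genotype cannot be told apart.

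The circadian clock of mammalian cells is a transcriptional feedback loop. CLOCK and its partner BMAL1 (gene symbol Arntl) bind E-boxes and switch on the Per and Cry genes, whose proteins return to the nucleus and repress CLOCK and BMAL1, while NR1D1 (REV-ERB alpha) represses Arntl in a second loop. DBP, TEF and HLF are the PAR bZIP factors, which pass the rhythm on to output genes through D-boxes. Cultured fibroblasts are known to carry such a clock, cell by cell, and a serum shock or glucocorticoid aligns it across a dish.

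Each value is the authors' ratio of the 2 channels, taken as log2, with the mutant likely over the wild type. Base 2 fits the width of the values, and the direction is not stated: it rests on the sample titles and on Kmt2a, which stood at −1.61, −1.58, −1.01 and −0.78 on arrays 1 to 4, and if it is the other way every rise below is a fall. Between 31603 and 37425 of 45018 features held a value on each array, no channel intensities were used here, and array-to-array correlations ran from 0.72 to 0.85. Of the fibroblast markers, 9 of 10 had a feature with a value on all arrays. Of these 9, 4 were higher and 4 lower (8 of 9, beside 59.2% of all genes tested). Pdgfra (−2.03 ± 0.24, SD, n = 4) and Pdgfrb (−1.59 ± 0.21) were lower in the mutant and Vim (0.57 ± 0.13) and Fn1 (0.80 ± 0.20) higher (limma adjusted p from 0.00066 to 0.00622). Dcn (−2.21 ± 0.85) and Lum (−1.88 ± 1.13) were lower too, more so on arrays 3 and 4 than on arrays 1 and 2. S100a4 (1.04 ± 0.29) and Col1a1 (0.53 ± 0.14) were also higher, and Col1a2 did not pass. Of the markers of other cell types, 4 of 6 epithelial, 3 of 4 endothelial and 1 of 4 macrophage and blood genes had such a feature, and 8 of 35 endothelial features did. Of the macrophage and blood genes, Cd68 and Csf1r had no feature named for them, so they could not be read. Of the 4 epithelial genes Krt5 was lower (−0.42 ± 0.04) and Krt8, Krt18 and Krt14 did not pass. Of the 3 endothelial genes Kdr was higher (1.10 ± 0.20), Cdh5 lower (−0.39 ± 0.96, at 0.42, −1.35, 0.46 and −1.09, split by dye) and Tek did not pass, nor did the blood marker Ptprc. Their part in the clock gene ratios was not tested.

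Start-site sequences are shown for the 5 clock genes with the widest ratios, since E-boxes and D-boxes are the elements through which the loop is known to act. They span 250 bases before to 50 after the start site (RefSeq, GRCm38.p6) and read 5′ to 3′ along the gene, with capitals marking matches on either strand to the E-box CACGTG, the E-prime box CACGTT, the D-box TTANGTAA, the cAMP response element TGACGTCA or the ROR element AGGTCA.
Hlf (chr11:90390868-90391167, minus strand): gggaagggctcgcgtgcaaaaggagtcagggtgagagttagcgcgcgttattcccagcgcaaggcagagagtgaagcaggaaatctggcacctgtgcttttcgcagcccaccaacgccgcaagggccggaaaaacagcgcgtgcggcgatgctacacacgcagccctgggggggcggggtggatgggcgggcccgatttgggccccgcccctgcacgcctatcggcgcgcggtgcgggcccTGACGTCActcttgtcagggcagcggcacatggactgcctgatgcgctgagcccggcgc
Per3 (chr4:151044616-151044915, minus strand): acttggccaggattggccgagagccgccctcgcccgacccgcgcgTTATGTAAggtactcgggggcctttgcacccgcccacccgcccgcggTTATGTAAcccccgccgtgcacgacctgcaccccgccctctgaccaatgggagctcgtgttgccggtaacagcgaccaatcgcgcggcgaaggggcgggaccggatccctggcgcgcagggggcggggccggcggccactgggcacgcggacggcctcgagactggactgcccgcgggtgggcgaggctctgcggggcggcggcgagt
Cry1 (chr10:85185005-85185304, minus strand): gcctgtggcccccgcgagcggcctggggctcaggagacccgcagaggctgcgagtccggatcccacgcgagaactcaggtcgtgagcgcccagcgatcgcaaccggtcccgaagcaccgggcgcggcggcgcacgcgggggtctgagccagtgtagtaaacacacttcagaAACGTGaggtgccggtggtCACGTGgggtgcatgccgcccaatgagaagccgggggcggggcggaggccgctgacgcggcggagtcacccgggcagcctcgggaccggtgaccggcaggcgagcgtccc
Cry2 (chr2:92434020-92434319, minus strand): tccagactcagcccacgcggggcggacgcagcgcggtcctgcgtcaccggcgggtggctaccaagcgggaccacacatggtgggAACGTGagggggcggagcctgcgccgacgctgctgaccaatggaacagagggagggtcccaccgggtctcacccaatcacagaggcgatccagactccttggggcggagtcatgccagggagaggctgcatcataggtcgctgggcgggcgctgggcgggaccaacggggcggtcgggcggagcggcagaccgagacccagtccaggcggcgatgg
Bhlhe41 (chr6:145865371-145865670, minus strand): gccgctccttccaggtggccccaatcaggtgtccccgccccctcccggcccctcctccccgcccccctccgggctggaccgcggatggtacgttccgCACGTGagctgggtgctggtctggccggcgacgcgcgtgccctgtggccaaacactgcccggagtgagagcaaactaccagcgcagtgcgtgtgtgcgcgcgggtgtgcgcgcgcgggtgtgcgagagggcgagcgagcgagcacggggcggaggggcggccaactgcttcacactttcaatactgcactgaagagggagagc

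Among the 10 clock genes 9 had such sequences, 11 in all, and no 2 matches in them overlapped. The E-box letters stood in 5 of the 11, belonging to Bhlhe41, Cry1, Per1 and Tef, against 7.15% of 32851 start-site sequences of all genes. The E-prime box stood in those of Cry1, Cry2 and Nr1d1 (4.68% of all), the cAMP response element in that of Hlf (1.79%), and the ROR element in that of Per1 (16.26%). The Per3 sequence held the D-box letters at 2 places, beginning at −205 and −158 with the start site at 0, where 2.32% of all sequences held any. These matches are descriptions of letters and show no binding.

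Hlf fell in Mll1-/- fibroblasts by more than any other clock gene, and Cry2 and Bhlhe41 rose. Hlf was 5.80-fold lower (log2 ratio −2.54 ± 0.10, SD over 4 arrays, as for all errors here), Cry2 1.89-fold higher (0.92 ± 0.13) and Bhlhe41 1.52-fold higher (0.61 ± 0.17). Per3 fell 1.46-fold (−0.55 ± 0.34) and Cry1 1.33-fold (−0.41 ± 0.19). Per1 and Nr1d1 passed the threshold with small ratios, on values that split by dye or by feature, and Per2, Dbp and Tef did not pass it. In all 7 of the 10 passed, 4 higher and 3 lower (limma, dye term fitted per gene, threshold of 0.05 on p-values adjusted by Benjamini and Hochberg over 14222 genes), beside 59.2% of all genes tested, 29.1% higher and 30.1% lower, so the count is near that of genes at large. The sign was the same on all 4 arrays for 7 of the 10, beside 66.5% of all genes tested. The median log2 ratio of the 10 was 0.023, and their median absolute ratio 0.30, against 0.34 over all genes tested. Hlf alone both passed and changed at least 2-fold, as 14.4% of all genes tested did. With arrays 1 and 2, and arrays 3 and 4, averaged into 1 value each, 4 of the 10 passed, and with 1 array left out 3 or 4 did. Of all 14222 genes tested, 5613 passed with this averaging and 5455 to 5843 with 1 array left out.

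**Figure D1:**
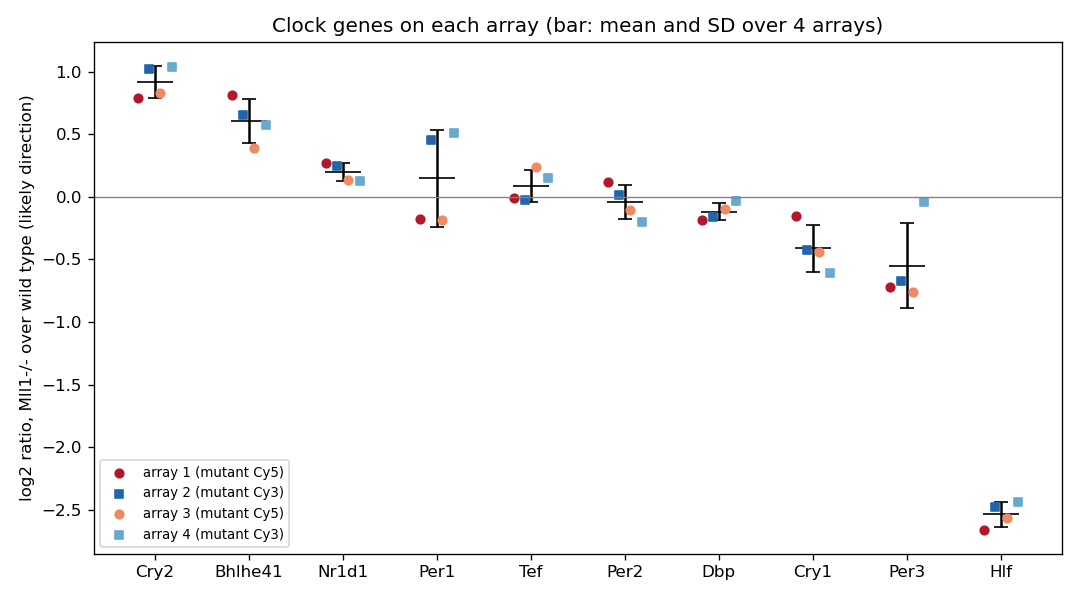
Log2 ratio of each clock gene on the 4 arrays (points, circles where the mutant was Cy5 and squares where it was Cy3), with the mean and SD as bars, ordered by mean. Hlf lies between −2.66 and −2.44 on every array, below all other genes, Cry2 lies between 0.79 and 1.04, and the Per1 points split by dye.

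The PAR bZIP factors did not move together. Hlf, a factor best known from liver, kidney and brain, stood at −2.66, −2.48, −2.57 and −2.44 on arrays 1 to 4. It was measured by 1 feature, was low on each array in both dye orientations, and its ratio was lower than that of all but 1.94% of the genes tested (limma adjusted p = 0.000426). Dbp, named for binding the albumin promoter D-box and one of the most strongly rhythmic transcripts of mouse tissues, stood at −0.18, −0.16, −0.093 and −0.034. It lay below 0 on each array but did not pass (−0.12 ± 0.07, 95% interval −0.26 to 0.020, limma adjusted p = 0.107). Tef, thyrotroph embryonic factor, averaged 0.090 ± 0.13 over its 4 features (95% interval −0.12 to 0.30, limma adjusted p = 0.332). Dbp lay above Hlf by 2.42 ± 0.08 and Tef above Hlf by 2.63 ± 0.15 on the log2 scale, on 4 of 4 arrays each. An exact two-sided sign-flip permutation test gave p = 0.125 for both and for the Cry difference given later, the smallest p that 4 arrays allow.

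Tested singly, 9 of 17 clock gene features passed, 5 higher and 4 lower, beside 59.6% of all features, 29.9% higher and 29.7% lower. The small mean of Tef hid features that differed. Its feature 2 stood at 0.31, 0.50, 0.47 and 0.63 and passed (1.39-fold, limma adjusted p = 0.00642 over 24012 features). Feature 3 stood at −0.36, −0.25, −0.22 and −0.0059, below feature 2 on every array, and did not pass (adjusted p = 0.0671). The platform annotation lists the same RefSeq mRNA for features 2, 3 and 4. Feature 1, drawn from another cDNA, ran from −0.82 to 0.16, and feature 4 from −0.17 to 0.66, and neither passed.

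Of the Period genes, which encode the repressors that enter the nucleus with the cryptochromes, only Per3 had a ratio of one sign on all arrays. Per3, a member that is known to be dispensable for the core loop in mice, stood at −0.72, −0.67, −0.76 and −0.038. It was low on arrays 1 to 3 and near 0 on array 4 (−0.55 ± 0.34, limma adjusted p = 0.0336). Without array 4 its ratio was −0.71, and without array 1 or 3 its call was lost (highest adjusted p = 0.109). Per1, which is also an immediate-early target of glucocorticoid and cAMP signalling, stood at −0.18, 0.46, −0.19 and 0.51. The values were below 0 on both arrays with the mutant in Cy5 (mean −0.18) and above 0 on both with it in Cy3 (mean 0.48). Its mean of 0.15 ± 0.39 passed in the fit with a dye term (limma adjusted p = 0.0378) and not in the fit without one (adjusted p = 0.469). The call was also lost without any 1 array (limma adjusted p from 0.144 to 0.188). The dye term of Per1 was −0.33 with an unadjusted p of 0.00171 and an adjusted p of 0.298 (limma), where 14.8% of genes tested had an unadjusted p under 0.05 and none passed after adjustment.

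Per2, the Period gene whose loss is known to shorten or abolish rhythms in mice, did not pass (−0.043 ± 0.14, 95% interval −0.25 to 0.16, limma adjusted p = 0.626). Its feature 2 stood at 0.30 and 0.27 on arrays 1 and 2 and at −0.22 and −0.22 on arrays 3 and 4. Its feature 1, at −0.071, −0.24, 0.016 and −0.17, showed no such step. The labels do not say whether arrays 1 and 2, or 3 and 4, share an RNA extract.

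**Figure D2:**
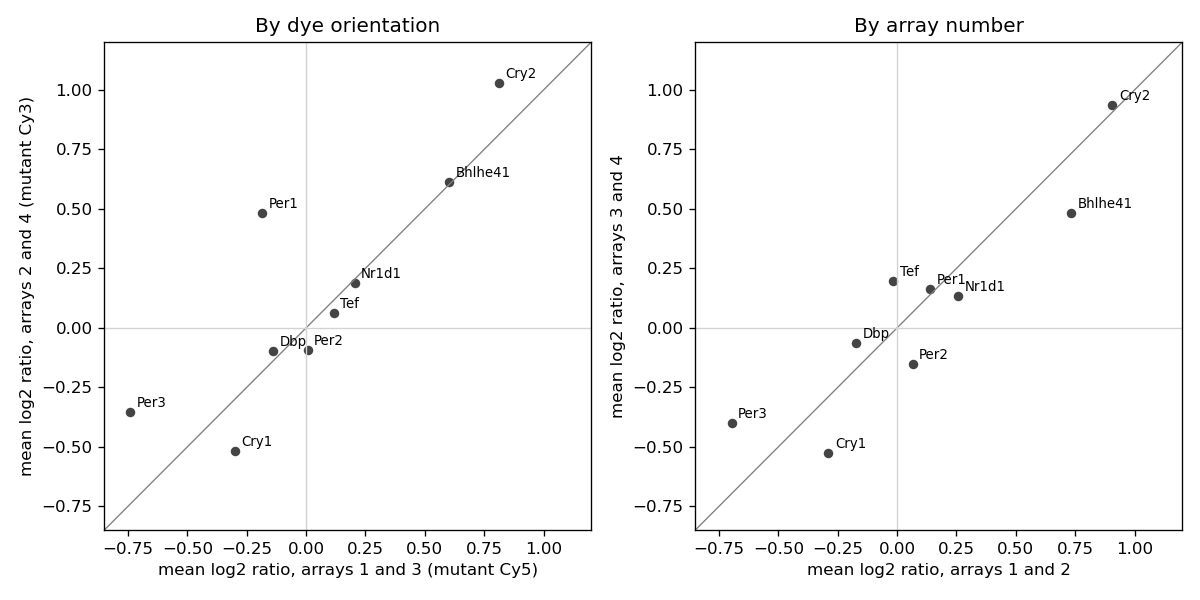
Mean log2 ratio of 9 clock genes (Hlf, far below, is left out) on arrays with the mutant in Cy3 against those with it in Cy5 (left), and on arrays 3 and 4 against arrays 1 and 2 (right), with the line of equality. Per1 lies at −0.18 and 0.48 by dye, away from the line, and Per2 and Tef change sign between the array pairs.

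The cryptochromes, the strongest repressors of CLOCK and BMAL1, went in opposite directions. Cry2 stood at 0.79, 1.02, 0.83 and 1.04, high on each array (limma adjusted p = 0.00109). This feature of Cry2 had a value on every array. A second one was blank on array 3, stood at 2.12, −0.62 and 0.60 on arrays 1, 2 and 4, and was not tested. Cry1 stood at −0.16, −0.42, −0.44 and −0.61, below 0 on each array (limma adjusted p = 0.0193). Its features both passed as lower, with means of −0.45 and −0.37 (adjusted p = 0.0106 and 0.0448). Leaving out array 2, 3 or 4 ended its call (highest adjusted p = 0.0825), as did averaging arrays 1 with 2 and 3 with 4 (adjusted p = 0.0600). Cry2 lay above Cry1 on 4 of 4 arrays, by 1.33 ± 0.30 on the log2 scale, and their ranges did not overlap. Mice that lack Cry1 are known to run a short period and mice that lack Cry2 a long one.

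Nr1d1 and Bhlhe41 encode repressors of the accessory loops. Bhlhe41 (DEC2), which competes with CLOCK and BMAL1 at E-boxes, stood at 0.81, 0.65, 0.39 and 0.57, above 0 on each array (limma adjusted p = 0.0117). The call was lost without array 2 (adjusted p = 0.0600) or array 4 (0.0517). Its second feature was blank on array 1, stood at 1.81, −0.0022 and 1.28 on the others, and was not tested. Nr1d1 stood at 0.27, 0.25, 0.14 and 0.13 as a mean of 3 features (0.20 ± 0.07, limma adjusted p = 0.0392), and lost the call without any 1 array (adjusted p from 0.0998 to 0.175).

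Of the 3 Nr1d1 features 1 was higher in the mutant and 2 did not pass. Feature 3 stood at 0.92, 0.62, 0.96 and 0.91, 1.80-fold higher (limma adjusted p = 0.00314). Feature 1 stood at −0.21, 0.17, −0.14 and −0.13 and feature 2 at 0.10, −0.050, −0.41 and −0.39, and neither passed (adjusted p = 0.399 and 0.268). Every value of feature 3 was above every value of the other features. Among the 5983 genes with several tested features, 41.3% had some features past the threshold and others not, and 5.48% had features past it in opposite directions, which none of the 4 clock genes with several tested features had. Nr1d1 overlaps its neighbour Thra, the thyroid hormone receptor alpha gene, in the RefSeq gene table, and is known to be read from the opposite strand. Thra, chosen here after its values were seen, was lower at −0.65, −0.32, −0.70 and −0.29 (1.40-fold, limma adjusted p = 0.00294). Which of the Nr1d1 features lie in the overlap was not tested.

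**Figure D3:**
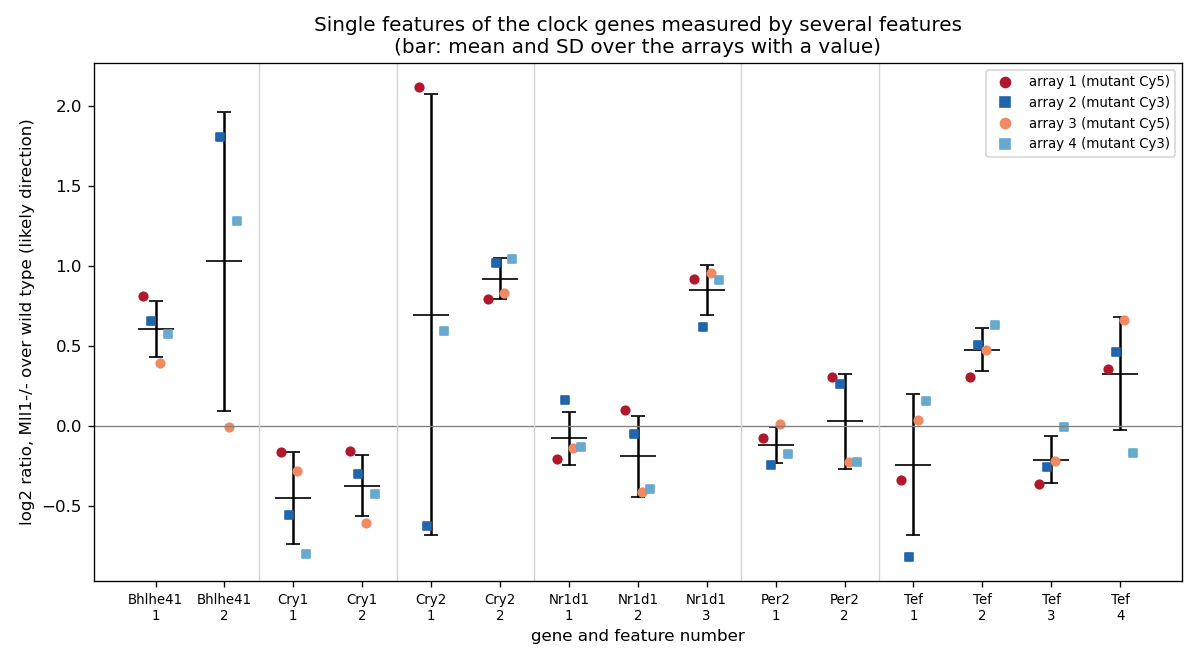
Log2 ratio of every feature of the 6 clock genes measured by several features, on each array with a value (points), with the mean and SD as bars. Nr1d1 feature 3 lies between 0.62 and 0.96, above its other features, the Tef features lie on both sides of 0, and the features of Cry2 and Bhlhe41 with a blank spread over more than 1 log2 unit.

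In order of ratio the genes ran Cry2, Bhlhe41, Nr1d1, Per1, Tef, Per2, Dbp, Cry1, Per3 and Hlf. Neighbours in this order overlapped in their array values except at 2 places, between Bhlhe41 (lowest 0.39) and Nr1d1 (highest 0.27), and between Per3 (lowest −0.76) and Hlf (highest −2.44). By Euclidean distance over the 4 arrays the genes closest to Hlf were the collagen VI chains Col6a1 (distance 0.25, mean −2.59) and Col6a2 (0.25, −2.51) and the protocadherin Pcdhb19 (0.26, −2.52).

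The other genes of the clock moved in both directions as well. Of 34 tested in 5 lists, 7 rose and 10 fell (17 of 34 in all, beside 59.2% of all genes tested), with a median of −0.065. With arrays 1 and 2, and 3 and 4, averaged, 10 passed, beside 5613 of all 14222 genes tested. Among the activators, Arntl, which encodes BMAL1, rose (0.46 ± 0.19, limma adjusted p = 0.0253) and its paralogue Arntl2 fell 2.37-fold (−1.24 ± 0.50, adjusted p = 0.0144). Clock itself was at 0.15 ± 0.26 and did not pass (adjusted p = 0.380). The call of Arntl was lost without array 1, 2 or 3 (highest adjusted p = 0.0955) and that of Arntl2 without array 1 (0.0539). Npas2, a partner of BMAL1 in brain, had values on 2 arrays and was not tested.

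Of 5 companion feedback factors 1 rose and 2 fell (3 of 5, beside 59.2% of all genes tested). The number that passed was 1 with arrays 1 and 2, and 3 and 4, averaged or without array 4, and 5 with arrays 1 and 4, and 2 and 3, averaged. Of all 14222 genes tested, 5613, 5843 and 9672 passed in these settings, in that order. Nr1d2 (REV-ERB beta), the paralogue of Nr1d1, fell (−0.52 ± 0.16, limma adjusted p = 0.00388), at −0.47, −0.65, −0.32 and −0.65. Nfil3, which opposes the PAR bZIP factors at D-boxes, also fell (−0.44 ± 0.18, adjusted p = 0.0170). Bhlhe40 (DEC1), the paralogue of Bhlhe41, rose 1.31-fold (0.39 ± 0.15, adjusted p = 0.0201). The calls of Nfil3 and Bhlhe40 were each lost without 1 of several arrays (highest adjusted p = 0.0692 without array 3 and 0.0832 without array 2). Ciart was at −0.27 ± 0.16 and Rora, an activator of Arntl, at 0.10 ± 0.12, and neither passed.

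Among 9 modifiers of PER and CRY proteins, 2 rose and 2 fell (4 of 9, beside 59.2% of all genes tested). Gsk3b, a kinase that phosphorylates clock proteins, rose 1.93-fold (0.95 ± 0.08, limma adjusted p = 0.00161). Timeless, a replication-fork protein that binds cryptochromes, fell 1.72-fold (−0.78 ± 0.07, adjusted p = 0.0018). The casein kinases that mark PER for degradation differed, with Csnk1e lower (−0.50 ± 0.23, adjusted p = 0.00489) and Csnk1d higher (0.31 ± 0.03, adjusted p = 0.0079). Csnk1d lost its call without array 1, 3 or 4 (highest adjusted p = 0.0583).

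Of 9 chromatin cofactors of the clock 2 rose and 1 fell (3 of 9, beside 59.2% of all genes tested). Wdr5, a core subunit of MLL complexes that is also known from PER complexes, rose 1.54-fold (0.62 ± 0.12, limma adjusted p = 0.00507), as did the acetyltransferase gene Crebbp (0.63 ± 0.07, adjusted p = 0.00272). Its paralogue Ep300 fell (−0.51 ± 0.27, adjusted p = 0.0381), a call lost without array 2 or 4 (highest adjusted p = 0.127). The deacetylase gene Hdac3 (−0.010 ± 0.03) and the methyltransferase gene Ezh2 (−0.014 ± 0.02) did not pass, with 95% intervals within −0.12 to 0.10.

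Of 8 clock output genes, 4 fell and 1 rose (5 of 8, beside 59.2% of all genes tested), and 3 passed without array 3 or 4 or with arrays 1 and 2, and 3 and 4, averaged. Of all 14222 genes tested, 5739, 5843 and 5613 passed in these settings, in that order. Lpin1, a phosphatidate phosphatase, fell 3.08-fold (−1.62 ± 0.31, limma adjusted p = 0.00439), with values from −1.95 to −1.31. Klf9, a glucocorticoid-responsive zinc-finger factor, fell 1.58-fold (−0.66 ± 0.09, adjusted p = 0.00302). Nampt, of NAD synthesis (−0.41 ± 0.12, adjusted p = 0.0155), and Alas1, the first enzyme of haem synthesis and a target of PAR bZIP factors in liver (−0.28 ± 0.05, adjusted p = 0.0122), were lower too. Wee1, the mitotic kinase with E-boxes in its promoter, rose 1.29-fold (0.37 ± 0.06, adjusted p = 0.00701). Pdxk, another known target of the PAR bZIP factors in mice, was at 0.024 ± 0.12 and did not pass (adjusted p = 0.788). Without array 3 or 4 Nampt, and without any 1 array Alas1, did not pass (highest adjusted p = 0.0676 and 0.0786).

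**Figure D4:**
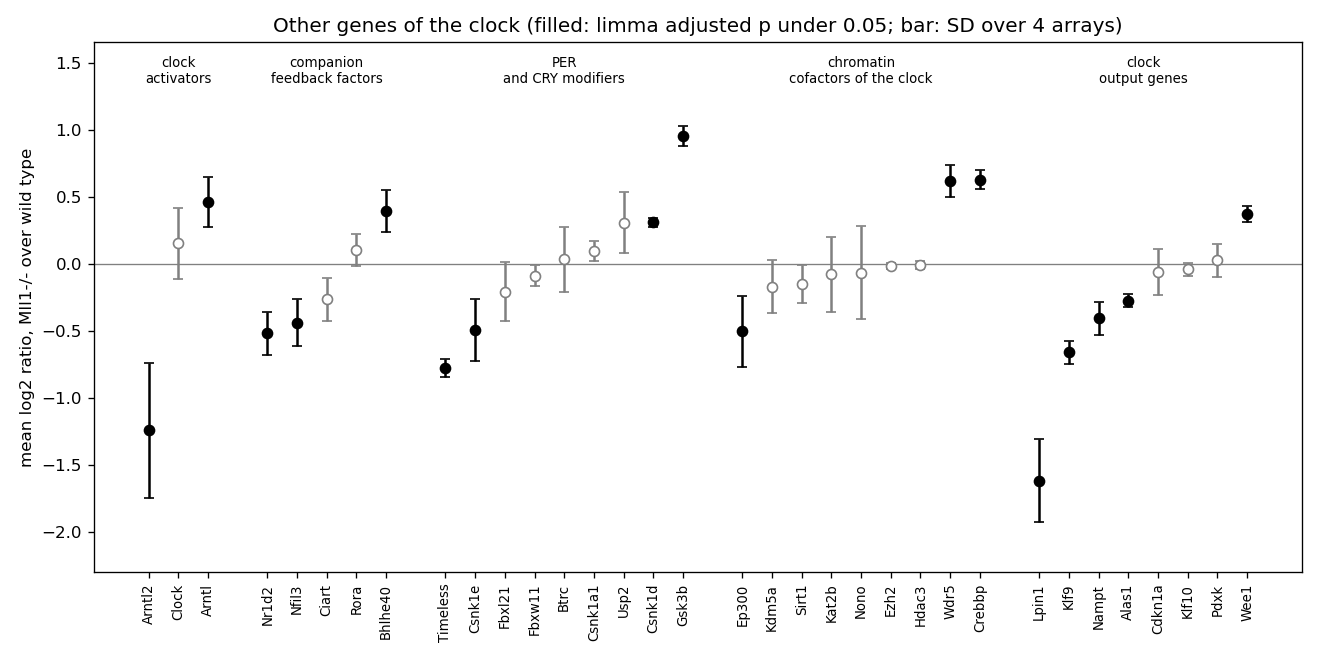
Mean log2 ratio and SD over 4 arrays of 34 other clock genes in 5 lists, filled where the limma adjusted p was under 0.05. Lpin1 and Arntl2 lie lowest at −1.62 and −1.24, and Gsk3b highest at 0.95.

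Signals that are known to act on Per1 and to reset fibroblast clocks were read out beside it. Of 7 genes of the cAMP and serum response, 4 fell and 1 rose (5 of 7, beside 59.2% of all genes tested), with a median of −0.47. The number that passed was 2 without array 1, and 3 without array 2 or 4 or with arrays 1 and 2, and 3 and 4, averaged. Of all 14222 genes tested, 5620, 5455, 5843 and 5613 passed in these settings, in that order. The immediate-early genes Fos and Egr1 fell 3.05-fold and 2.94-fold (−1.61 ± 0.51 and −1.56 ± 0.18, limma adjusted p = 0.00721 and 0.000955). Sik1 (−0.89 ± 0.33) and Nr4a1 (−0.47 ± 0.23) fell too, and Crem rose (0.23 ± 0.07, limma adjusted p of the 3 from 0.0132 to 0.0396). Crem lost its call without any 1 array and with arrays 1 and 2, and 3 and 4, averaged (highest limma adjusted p = 0.0948). Sik1 kept its call under 10 of 11 alternatives and Nr4a1 under 6 of 11. Nr4a2 (0.10 ± 0.18) and Pde4d (−0.41 ± 0.40) did not pass. Of 5 glucocorticoid-response genes 2 rose and 1 fell (3 of 5, beside 59.2% of all genes tested), with Dusp1 at 0.66 ± 0.19, Sgk1 at −0.95 ± 0.10 and Nr3c1, the receptor itself, at 0.14 ± 0.01 (limma adjusted p from 0.00153 to 0.0421). Nr3c1 lost its call without any 1 array (limma adjusted p from 0.171 to 0.206), without the dye term (0.0591) and with 1 blank allowed (0.0544). It also lost it with arrays 1 and 2, and 3 and 4, averaged (0.226) or as a random block, a fit without a dye term (0.0550). The number that passed in these settings was 2 of 5, where 5455 to 8083 of all genes tested passed. Tsc22d3 (0.043 ± 0.16) and Fkbp5 (0.22 ± 0.20), classical targets of that receptor, did not pass. Their part in the clock gene ratios was not tested.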

How the data were processed

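Total RNA was labelled with an Agilent two-colour protocol and hybridised to 4 whole-genome mouse arrays, per the labels' protocols. Agilent Feature Extraction 10.1.1 was used, per the submitters' processing notes. For each feature and array the authors deposited a single value, taken here as a log2 ratio. How background, normalization and blanks were handled, and the log base and direction, is not given in the sources used here. Array medians were −0.0093, 0.025, −0.016 and 0.016, and scale was kept as deposited.

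Features were named by the platform annotation, and 33517 of 33653 singly named ones matched a RefSeq gene table by gene ID. Features with a blank were left out, and the others were averaged per gene (24012 features of 14222 genes). The test of genotype used lmFit and eBayes of limma 3.58.1 (R 4.3.3), a dye term for each gene and Benjamini-Hochberg adjustment over all genes, or over all features where single features are given. The fit was checked on simulated data with independent arrays, no dye effect and few changed genes. That check does not cover dye effects or RNA shared between arrays. The labels do not say that arrays came from separate cultures, so p-values measure the spread between arrays, which may be technical. Precision is limited by there being 4 arrays.

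The genes and lists were chosen with earlier results of these data known. Named are all 10 clock genes with every feature, Kmt2a, any testable gene of 7 related lists, markers of 4 kinds of cell, and the 3 genes closest to the clock gene of widest ratio. Thra, the neighbour of Nr1d1, was added after its values were seen. Alternatives dropped the dye term, centred or scaled the arrays, averaged or blocked pairs of arrays, allowed 1 blank, tested features singly, or left out 1 array. The blocked fit had no dye term, and its estimated correlation within array pairs was −0.037. Each pair held both dye orientations, so dye effects lower this value, and it cannot show that paired arrays are independent. Averaging arrays 1 and 2, and 3 and 4, left 5613 of all genes past the threshold, and averaging 1 and 4, and 2 and 3, 9672. Whether paired arrays share RNA was not tested. No gene set test was run.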

Additional observations from a re-analysis of the deposited data

Results flagged for a closer look

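Among 72 sets of 4 array values examined for a lone array far from the rest, 4 stood out, where chance gives about 1 in 20. Per3 stood at −0.038 on array 4, a gap to the next array of 0.878 of the whole range. The third feature of Nr1d1 stood at 0.62 on array 2, below its other arrays by 0.867 of the range. Usp2, a deubiquitinase gene among the modifiers of PER and CRY, stood at 0.64 on array 4 (0.834). Its ratio of 0.31 did not pass (limma adjusted p = 0.0544), nor did that without array 4 (0.20, adjusted p = 0.104). Without array 2 its ratio was 0.41 and passed (adjusted p = 0.0369). Crebbp stood at 0.52 on array 2 (0.859) and stayed above 0 on all arrays.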

How the results depend on the processing

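Hlf and Cry2 kept their direction and their call under every alternative run (log2 ratio −2.56 to −2.51, and 0.83 to 0.93). Centring or scaling the arrays ended no clock gene's call. With 1 array left out, 3 to 4 of the 10 clock genes, 11 to 14 of the 34 others and 5455 to 5843 of all genes passed, and the fit then has 1 residual degree of freedom. With arrays 1 and 2, and 3 and 4, averaged, which also leaves 1 residual degree of freedom, 4 clock genes, 10 others and 5613 of all genes passed. Per1 (0.15), Cry1 (−0.41) and Nr1d1 (0.20) then lost the call, and Per1 and Nr1d1 lost it without any 1 array too. Per1 (0.15) also lost it without the dye term and with these pairs as a random block, Nr1d1 (0.20) with 1 blank allowed (limma adjusted p = 0.0501), and Per3 (−0.55) with arrays 1 and 4, and 2 and 3, averaged (0.0594), where Dbp (−0.12) passed (0.0388). Leaving out 1 array gave Per1 0.14 to 0.16, Nr1d1 0.16 to 0.23, Per3 −0.71 to −0.39, Cry1 −0.48 to −0.34, Bhlhe41 0.50 to 0.71, Tef 0.028 to 0.15, and Per2 −0.098 to 0.012, the last turning sign without array 3 or 4. Taken singly, Per2 feature 2 (0.030), Tef features 1 and 3 (−0.24 and −0.21) and Nr1d1 features 1 and 2 (−0.076 and −0.19) had the opposite sign to their gene's mean, and Tef feature 2 (0.48) passed. Of the genes beside them that did not pass, leaving out 1 array turned the sign of Clock (−0.0059 to 0.31), Btrc (−0.026 to 0.087), Hdac3 (−0.029 to 0.0080), Kat2b (−0.22 to 0.062), Nono (−0.22 to 0.091), Pdxk (−0.041 to 0.088) and Cdkn1a (−0.14 to 0.018), and allowing 1 blank that of Rora (−0.013). The cause of these changes was not tested. Signal over background is unknown here, so ratios of dim features, such as those with blanks, cannot be weighed.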
